A study of Mus musculus with 161 samples.

Results

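The parylation-deficient CTCF line was compared with the full-length CTCF line by 5C, an assay that counts ligation products between designed forward and reverse primers and so measures how often pairs of restriction fragments touch. Of the 91 5C libraries of the series, 69 come from CTCF transgene lines with a corrected contact matrix. The comparison used the 2 libraries labelled parylation deficient (line EN252.4) and the 14 libraries of the full-length line EN133.10, chosen by their labels alone. Both lines are male E14Tg2a mouse embryonic stem cells in which both copies of endogenous Ctcf are fused to an auxin-inducible degron and eGFP, with Tir1 expressed to degrade that protein when auxin is added. Both also carry a doxycycline-inducible (TetO) transgene at the Tigre locus that makes FLAG-tagged, mRuby2-fused CTCF, either full-length or mutated. All 16 libraries come from cells that received auxin and dox for 4 days, to degrade the endogenous protein and to induce the transgene. The paper reports that the full-length transgene was expressed well below the level of the tagged endogenous protein. Each line is 1 clone, so clone and mutation cannot be told apart, and the amount of transgene protein was not analysed here. Nothing in the labels says which libraries came from separate cultures, so p-values measure only the spread between these libraries.

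CTCF is a zinc-finger protein that binds a directional DNA motif and halts loop-extruding cohesin, which builds loops between motifs that face each other and boundaries between contact domains. Its N-terminal part, which lies before the zinc fingers, meets cohesin first when cohesin arrives from the side that favours loop anchoring. Parylation is the attachment of poly(ADP-ribose) chains to a protein, often on glutamic acids. In the mutant, the 8 glutamic acids of a short N-terminal stretch were replaced by alanine. That stretch lies within residues 179-265, the part that another line of the series lacks. It also holds both residues changed in the Y226A-F228A line of the series. The paper cites in vitro binding of the cohesin subunits RAD21 and SA2 by residues that include these and some of the replaced glutamic acids. Loss of parylation was not measured in these libraries.

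The mutated stretch is shown first because the whole comparison rests on it. In mm9 it is 30 codons of 1 coding exon of Ctcf (transcript Ctcf-001), at chr8:108188305-108188394 on the plus strand. The unmutated reference sequence is printed 5′ to 3′ with the 8 glutamic acid codons, 4 GAA and 4 GAG, in capitals.
Ctcf reference stretch: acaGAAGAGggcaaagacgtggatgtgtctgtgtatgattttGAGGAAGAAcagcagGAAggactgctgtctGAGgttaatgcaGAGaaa

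The contact map spans 4600 kb of the X inactivation centre, chrX:98831148-103431147 (mm9), in 230 bins of 20 kb. This region holds Xist, the long non-coding RNA that silences an X chromosome in females, its antisense partner Tsix, and Rlim, a ubiquitin ligase that activates Xist. The study's 6 boundaries divide it into 7 segments, numbered from left to right. Boundary 1 lies within Nhsl2, boundary 2 is 16.4 kb from the start of Cited1, boundary 3 lies within 4930519F16Rik and boundary 4 holds the start of Xist. Boundary 5 (chrX:101211148-101231147) overlaps no annotated gene and is 34.5 kb from the start of Rlim, and boundary 6 holds the start of Atp7a, a copper transporter gene. FLAG ChIP-seq of the full-length line placed 78 CTCF peaks in the map, in 54 of the 230 bins. The bins of boundaries 2, 4 and 6 hold 3 peaks each, those of boundaries 1 and 3 hold 1, and that of boundary 5 holds none.

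The letters CCNNNAGNNGGC, a simplified core of the CTCF motif searched on both strands, were found in 39 of the 78 peaks (50.0%), each 200 bases long. Of the 200-base windows that tile the map outside peaks, 2.13% held them. The motifs printed here are those in the bins of the Xist to Rlim contacts described below and in the peak-bearing bins nearest to boundary 5. Each is given on its own strand with 10 flanking bases on either side and with the motif in capitals.
Peak 40 kb left of boundary 4, minus strand, chrX:100639286-100639297: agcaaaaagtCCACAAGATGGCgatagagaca
Second peak 40 kb left of boundary 4, minus strand, chrX:100649585-100649596: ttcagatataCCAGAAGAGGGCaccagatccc
Xist peak at boundary 4, plus strand, chrX:100677073-100677084: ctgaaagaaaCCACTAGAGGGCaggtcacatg
Second Xist peak at boundary 4, plus strand, chrX:100679571-100679582: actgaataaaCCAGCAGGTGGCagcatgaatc
Peak left of Rlim, minus strand, chrX:101132866-101132877: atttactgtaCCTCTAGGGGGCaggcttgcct
Peak 40 kb left of boundary 5, minus strand, chrX:101185964-101185975: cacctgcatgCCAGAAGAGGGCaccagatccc
Peak 80 kb right of boundary 5, plus strand, chrX:101307138-101307149: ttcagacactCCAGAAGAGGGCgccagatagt
Second peak 80 kb right of boundary 5, minus strand, chrX:101310095-101310106: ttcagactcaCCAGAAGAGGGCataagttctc
The plus-strand motifs at boundary 4 and the minus-strand motifs on the left of boundary 5 read towards each other, while those 40 kb left of boundary 4 are on the same strand as the latter. A match is a description of the sequence only.

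The 12 full-length libraries whose count matrix is complete held between 5262254 and 23096139 reads, with a median of 11957664. The count matrices of both mutant libraries and of 2 full-length libraries stop early, so depth was compared over the 91 forward primers present in all. There the mutant libraries held 1425298 and 1455517 reads and the full-length libraries between 806196 and 3596717. The values below therefore come from the corrected matrices, and raw counts serve only as an alternative where named. In these, 3.28% to 3.87% of 20-kb bin pairs were at 0 in the mutant and 3.54% to 17.1% in full-length CTCF. A forward and a reverse primer in the last 40 kb of the map (chrX:103402749-103404509 and chrX:103409579-103425147) were kept in 9 full-length libraries and in none of the other 5 or of the mutant libraries. Replicate numbers 3 and 4 each occur 2 times in the full-length group and are told apart as earlier and later. The 2 full-length libraries numbered consecutively with the mutant ones, called the same run here, are given beside the main values.

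Averaged over the 6 boundaries, insulation differed between the lines by less than the spread (SD) among full-length libraries. For the insulation score, the contacts that join the 100 kb before a bin to the 100 kb after it were averaged and divided by the mean over all bins. The score is the negative log2 of this ratio, so a higher score means fewer contacts across the bin. The mean over boundaries was 0.580 and 0.585 in the mutant. In full-length CTCF it ranged from 0.542 to 0.708 with a median of 0.603 (mean 0.607 ± 0.040, SD, n = 14). Both mutant values lay inside that range, and 11 of the 14 full-length libraries were above both. The difference was -0.02 with a 95% interval from -0.12 to 0.04 (two-sided exact permutation test, p = 0.317, smallest possible p 0.0167).

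Boundary 5, on the far side of Rlim from Xist, showed the largest fall in insulation of the 6 boundaries. Its score was 0.475 and 0.507 in the mutant. Full-length libraries ranged from 0.629 to 0.794 with a median of 0.709 (mean 0.710 ± 0.050, SD, n = 14), and those of the same run were at 0.732 and 0.698. Both mutant libraries lay below all 14. The score fell by 0.22 (95% interval -0.30 to -0.14, limma with Benjamini-Hochberg adjustment over 193 bins, adjusted p = 0.00084). It was the 1 boundary of 6 that was called, meaning an adjusted p under 0.05, against 9.33% of all 193 scored bins (18 bins). With any single library left out the difference stayed between -0.20 and -0.23. The call was lost by leaving out mutant replicate 1 (limma adjusted p = 0.0621).

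The other 5 boundaries kept their mutant values inside the range of the full-length libraries. Boundary 4, at the start of Xist, is the strongest of the map and had a score of 1.54 and 1.57 in the mutant. In full-length CTCF it ranged from 1.15 to 1.68 with a median of 1.36, and 13 of 14 libraries were below both mutant libraries. The difference of 0.17 did not pass (95% interval -0.01 to 0.36, limma adjusted p = 0.271). Boundary 2, near the transcriptional coactivator gene Cited1, differed by -0.09 (-0.21 to 0.03), with 0.576 and 0.563 in the mutant against 0.659 ± 0.086 (SD, n = 14). The differences at boundaries 1, 3 and 6 were -0.01 (-0.09 to 0.07), 0.01 (-0.07 to 0.08) and -0.01 (-0.13 to 0.11).

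**Figure D1:**
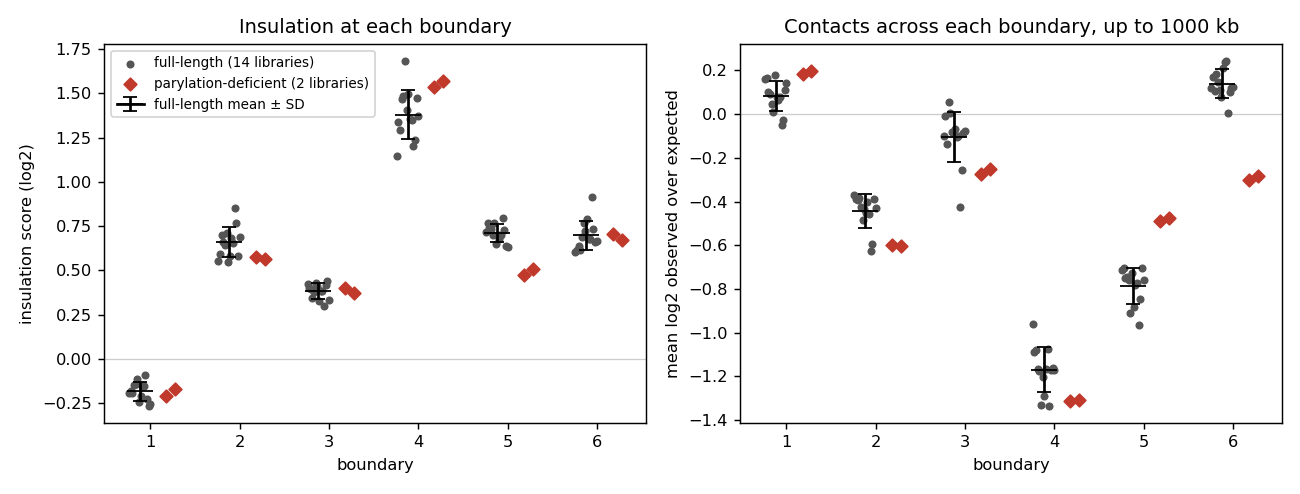
Insulation score (left, log2) and mean log2 observed over expected contact across each boundary (right) in every library, for boundaries 1 to 6. Grey points are the 14 full-length libraries with their mean and SD, red diamonds the 2 parylation-deficient libraries. At boundary 5 the mutant scores of 0.475 and 0.507 lie below all full-length libraries, and contacts across boundaries 5 and 6 lie outside the full-length range in opposite directions.

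Lower scores were not limited to the boundary bin, but the 100-kb windows of neighbouring bins overlap. Neighbouring called bins are therefore not separate observations, and a run of them does not show how far a change extends. Of the 18 bins called, 8 were lower in the mutant (4.15% of 193) and 10 higher (5.18%). The lower bins form 2 runs. The first run is 5 neighbouring bins from 20 kb before to 60 kb after boundary 5, which lie between the peak-bearing bins at 40 kb before and 80 kb after it and hold no peak themselves. In the bin just past boundary 5 (chrX:101231148-101251147) the score was 0.581 and 0.623 in the mutant and between 0.726 and 0.888, with a median of 0.806, in full-length CTCF. This is a fall of 0.20 (-0.27 to -0.13, limma adjusted p = 0.000499), and the groups did not overlap. In the peak-bearing bins 40 kb before and 80 kb after boundary 5 the differences were -0.05 and -0.08, and the groups overlapped.

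The second run of lower bins is in segment 4, just to the left of Xist, over Chic1, Tsx and the start of Tsix. In the bin over Tsx and Tsix (chrX:100611148-100631147) the score was 0.581 and 0.593 in the mutant. Full-length libraries lay between 0.758 and 0.919 with a median of 0.791, all above the mutant. The score fell by 0.21 (-0.29 to -0.14, limma adjusted p = 0.000499). Its neighbours over Chic1 fell by 0.18 and 0.12.

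The bins with more insulation lie mostly at the left end of the map. Of the 10, 5 are in segment 1, 3 are the bins just past boundary 1 within Nhsl2, 1 is in 4930519F16Rik and 1 is beside boundary 4 in Enox, a non-coding RNA gene next to Xist. The bin at chrX:100491148-100511147, over the start of 4930519F16Rik, had the largest difference. It was at -0.074 and -0.108 in the mutant and between -0.485 and -0.176, with a median of -0.331, in full-length CTCF. The difference was 0.23 (0.10 to 0.37, limma adjusted p = 0.0295). In segment 1, the bin at the start of Nhsl2 (chrX:99031148-99051147) was higher by 0.20 (0.12 to 0.28, adjusted p = 0.00204) and that at chrX:98931148-98951147 by 0.18 (0.07 to 0.28, adjusted p = 0.0326). Both mutant libraries lay outside the full-length range in 26 of the 193 bins (13.5%), below it in 10 (5.18%) and above it in 16 (8.29%). By limma, 0 bins were called without mutant replicate 1 (24 at an unadjusted p under 0.05) and 4 without replicate 2, and the 18 bins kept their direction in both cases.

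**Figure D2:**
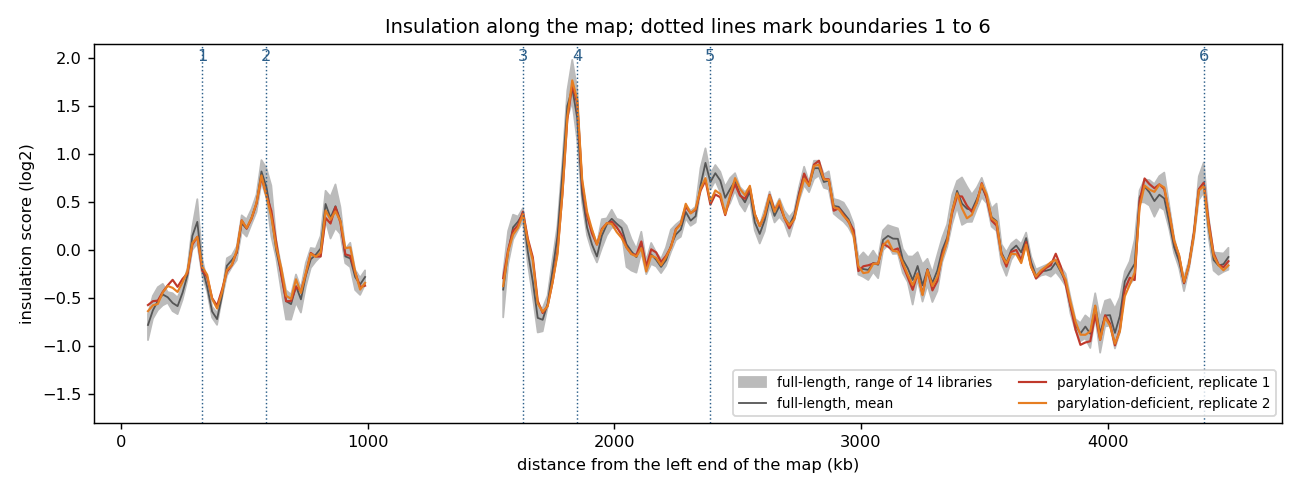
Insulation score (log2) along the map, by distance from its left end in kb. The grey band is the range of the 14 full-length libraries and the grey line their mean, the coloured lines are the 2 parylation-deficient libraries, and dotted lines mark boundaries 1 to 6, with a gap where too few primers allow a score. The mutant lines leave the band around boundary 5 and in parts of segments 1, 2 and 4, among other places, and follow it over most of the map.

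Contacts across boundary 5 rose in the mutant and those across boundary 6 fell. Contacts across a boundary were taken from 20-kb bin pairs up to 1000 kb apart with an end in each adjoining segment. Their log2 observed over expected contact was averaged, without the pairs at 0 or not measured in that library. The expected value is the library's own mean at the same distance. With pairs at 0 kept, by taking the log after the mean, boundaries 5 and 6 differed by 0.24 and -0.60. After Benjamini-Hochberg adjustment of the exact permutation test over the 6 boundaries, 3 of 6 were called (50%). These were boundaries 1, 5 and 6, each with p = 0.0167, the smallest this exact test can give, and an adjusted p of 0.0333. All 3 calls were lost when the expected value was left out: boundaries 5 and 6 then differed by 0.21 and -0.51 with an adjusted p of 0.05 each by the exact permutation test, at the threshold, and boundary 1 by 0.08 (p = 0.250).

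Across boundary 5, between the Rlim side and the long segment 6, the mutant values were -0.487 and -0.475. Full-length libraries lay between -0.965 and -0.703 with a median of -0.758 (mean -0.787 ± 0.082, SD, n = 14). All 14 were below the mutant, by 0.31 on average (0.22 to 0.48), a ratio of 1.24. The same-run libraries were at -0.744 and -0.758. Over these longer distances the direction is the same as in the insulation score, which reads the same contacts within 100 kb of either side.

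Across boundary 6, which separates segment 6 from Atp7a, the toll-like receptor gene Tlr13 and the glycolysis gene Pgk1, the mutant values were -0.304 and -0.282. Full-length libraries lay between 0.007 and 0.242 with a median of 0.122, all above the mutant. Contacts fell by 0.43 (-0.54 to -0.31), a ratio of 0.741. The same-run libraries were at 0.184 and 0.145. The insulation score of boundary 6, which covers 100 kb on either side, differed by -0.01, whereas the contacts counted here reach up to 1000 kb. Over the primers kept in all 16 libraries the difference was -0.34 (exact permutation test, adjusted p = 0.04).

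Across boundary 1 the mutant values were 0.183 and 0.197, and full-length libraries lay between -0.050 and 0.179 with a median of 0.086. The difference of 0.11 (0.02 to 0.23) was small and its lower mutant value lay just outside the highest full-length one. It was 0.02 with the replicate number as a block, which uses replicates 1 and 2 of each line, and 0.08 against the 5 libraries with the mutant's primers. The call at boundary 1 was also lost when the mean was taken before the log (0.07, exact permutation test p = 0.117). At boundaries 2, 3 and 4 the differences were -0.15 (-0.23 to 0.03), -0.16 (-0.30 to 0.15) and -0.14 (-0.35 to 0.02), and none passed (adjusted p between 0.100 and 0.117 by the exact permutation test). There 13, 12 and 12 of the 14 full-length libraries were above both mutant libraries. Without the later full-length replicate 3, which has the largest share of bin pairs at 0, 5 of the 6 boundaries were called.

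Within segments, none of the 7 was called (0%) by the exact permutation test with Benjamini-Hochberg adjustment, and 3 had an unadjusted p under 0.05. In segment 1, which runs from Ogt to the first part of Nhsl2, contacts were 0.259 and 0.281 in the mutant and between 0.334 and 0.478, with a median of 0.427, in full-length CTCF. The 14 full-length libraries were all above the mutant and the difference was -0.15 (-0.20 to -0.07, exact permutation p = 0.0167, adjusted p = 0.0778). Segment 4, with Chic1 and Tsx, differed by 0.07 (0.005 to 0.11) and segment 6 by 0.06 (0.01 to 0.16), each with p = 0.0333 by the exact permutation test. Segment 3, which holds Hdac8 and Phka1, differed by 0.09 (-0.02 to 0.23), and segments 2, 5 and 7 by 0.00, -0.04 and 0.02.

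Taking all combinations of segments side by side, the contacts between segments 6 and 7 stand lowest against full-length CTCF. The log2 of their mean observed over expected contact was -0.096 and -0.092 in the mutant and between 0.277 and 0.480 in full-length CTCF, a difference of -0.47. Contacts of segment 7 with segment 5 differed by -0.25 and those with segment 3 by -0.24, and in the latter the libraries overlapped. Those of segment 4, the Xist side, with its neighbours were lower too, by -0.23 with segment 3 and -0.19 with segment 5, without overlap. Contacts between segments 5 and 6 differed by 0.15 and those between segments 1 and 3 by 0.16, also without overlap. Smaller differences without overlap were those of segments 2 and 3 (-0.14), segments 3 and 6 (0.07), within segment 1 (-0.15) and within segment 6 (0.04). Here the log was taken after the mean. With the mean of logs, as used for contacts within segments and across boundaries, the libraries overlapped for segments 4 and 5 and within segment 6. They also overlapped for segments 2 and 3 and for segments 3 and 4, there over pairs up to 1000 kb apart. These 28 combinations are given as a description, with no test.

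**Figure D3:**
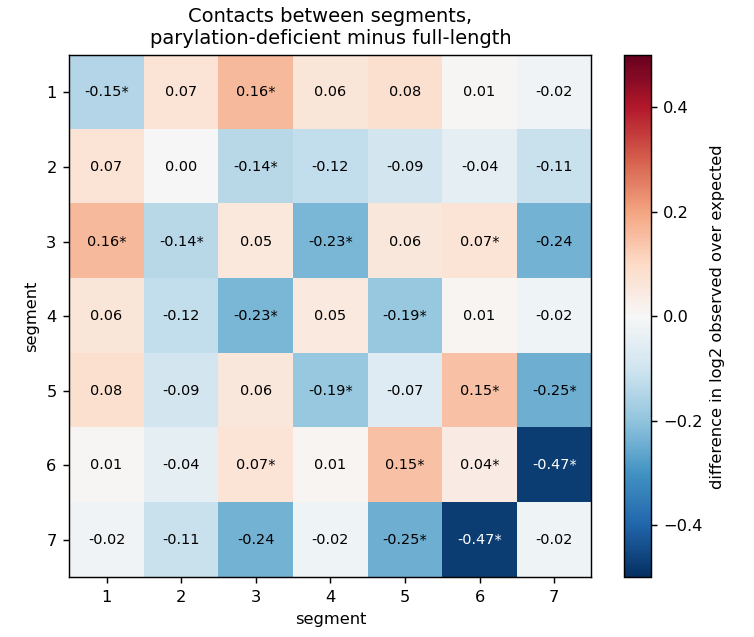
Difference in log2 mean observed over expected contact (parylation-deficient minus full-length) for every combination of the 7 segments, on both axes. Blue is lower and red higher in the mutant, and a star marks combinations in which the 2 mutant libraries lie outside the range of all 14 full-length libraries. Segments 6 and 7 have the lowest value, -0.47. The log was taken after the mean, and some starred combinations overlap with the mean of logs.

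At the scale of single 40-kb bin pairs, 11 of 5496 were called by limma (0.2%), all of them lower in the mutant and none higher, with adjusted p between 0.0327 and 0.0451. At an unadjusted p under 0.05 there were 483 pairs, 55.7% of them lower, and the median difference over all pairs was 0.05. The count of 11 was unstable: it lay between 0 and 20 with single libraries left out and was 0 without either mutant replicate (248 and 255 pairs at an unadjusted p under 0.05). It was also 0 without full-length replicate 6, 9, 11 or the replicate 4 of the same run. It was 1 or 2 without full-length replicate 2, 5, 10, 13 or the earlier replicate 3, and 17 to 20 without replicate 8 or the later replicates 3 and 4. All 11 pairs were lower in the mutant in each of these fits.

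A pair of bins that joins Xist to Rlim was among the 11. It joins the bin of boundary 4, with the plus-strand motifs printed above, and the bin over Rlim, with the minus-strand motif 40 kb left of boundary 5. It was singled out after its values were seen. Observed over expected contact was 1.32 and 1.32 in the mutant, and between 1.65 and 2.11 with a median of 1.92 in full-length CTCF (mean 1.93 ± 0.15, SD, n = 14). All full-length libraries were above the mutant. The difference was -0.52 (-0.72 to -0.32) on the log2(value + 0.1) scale, a ratio of 0.699 (limma adjusted p = 0.0416). The neighbouring pair, between the bin over Tsix and Xist and the bin left of Rlim with its minus-strand motif, was chosen in the same way. Both motifs found in its left bin are on the minus strand too, so they do not face that motif. It stood at 0.733 and 0.742 against 0.948 to 1.19, a difference of -0.48 (-0.67 to -0.30, limma adjusted p = 0.0416). Its median in full-length CTCF was 1.07, so in the mutant contacts went from about the mean for their distance of 480 kb to below it.

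The other 9 called pairs join segment 6 to the last 80 kb of the map, where Tlr13, Pgk1 and the transcription factor subunit gene Taf9b lie, over 520 to 1280 kb. The pair between chrX:102471148-102511147 and chrX:103351148-103391147 stood at 1.01 and 0.819 in the mutant. In full-length CTCF it ranged from 1.23 to 2.24 with a median of 1.86, a difference of -0.93 (-1.29 to -0.57, limma adjusted p = 0.0416). The pair between chrX:102351148-102391147 and the same right end stood at 0.881 and 0.958 against 1.24 to 1.90, a difference of -0.73. Neither segment 6 bin holds a peak, and the right bin holds 2 peaks without the motif.

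The pair with the largest difference ends in the last 40 kb, over Pgk1 and Taf9b, where the primer sets differ. It joins these 40 kb to chrX:102711148-102751147 and stood at 0.718 and 0.637 in the mutant. It lay between 1.69 and 3.18 in the 9 full-length libraries with the additional primers and between 1.52 and 2.82 in the 5 with the mutant's primers, so the mutant was below both sets. The difference was -1.66 (limma adjusted p = 0.0327), and over the primers shared by all libraries it was -0.84 (adjusted p = 0.666). The pairs of the last 40 kb with chrX:102111148-102151147 and with chrX:102671148-102711147 differed by -0.96 and -0.93, and over the shared primers by -0.60 and -0.45, no longer called. With shared primers 7 of the 11 pairs stayed called, among them both pairs at Xist and both named pairs that end 40 to 80 kb from the right end.

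Pairs towards the right end that were not called were mostly lower too. Over the whole map, both mutant libraries were below every full-length library in 171 of the 5496 pairs (3.11%) and above every one in 145 (2.64%). Over all pairs, 42.5% were lower in the mutant. Leaving out the 9 called pairs, 39 of 40 pairs between segment 6 and the last 80 kb at 400 to 1400 kb were lower, with a median of -0.52. At shorter distances 7 of 9 were lower (median -0.10), and at 1400 to 2400 kb 36 of 39 (median -0.24). Between segment 6 and the rest of segment 7 the counts were 17 of 21 (median -0.11), 71 of 74 (median -0.32) and 46 of 51 (median -0.18) over the same 3 ranges. These pairs overlap in their bins and carry no test of their own. The last 80 kb are the stretch in which the 9 called pairs end. Counts for that stretch include pairs of the last 40 kb, where primer sets differ, and were not taken over shared primers.

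No pair was called higher, and the 3 pairs with the smallest p in that direction are given as values. The pair between the Rlim bin and chrX:101431148-101471147, which spans boundary 5, stood at 0.942 and 1.01 in the mutant against 0.549 to 0.779 (difference 0.50, limma adjusted p = 0.104). A second pair across boundary 5, between the bin left of Rlim and chrX:101631148-101671147, stood at 0.616 and 0.632 against 0.425 to 0.540 (difference 0.32, adjusted p = 0.126). The third lies within segment 6, between the palmitoyltransferase gene Zdhhc15 and a bin without genes 1000 kb away, and stood at 0.893 and 0.943 against 0.399 to 0.648 (difference 0.70, adjusted p = 0.0679).

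**Figure D4:**
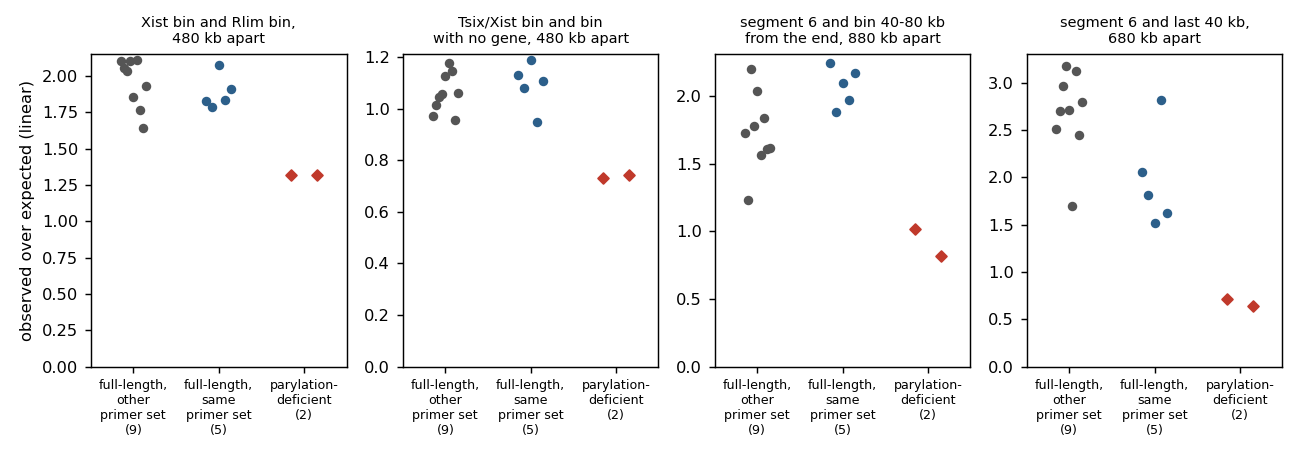
Observed over expected contact (linear scale from 0) of 4 called 40-kb bin pairs in every library. Grey points are the 9 full-length libraries with the additional primers in the last 40 kb, blue points the 5 full-length libraries with the mutant's primers and red diamonds the 2 parylation-deficient libraries. In all 4 pairs the mutant lies below every full-length library.

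By distance alone, none of the 7 bands was called (0%) by the exact permutation test after adjustment, and 1 had an unadjusted p under 0.05. Contacts per band were taken as log2 of the mean corrected contact relative to the mean over all bin pairs of the library. At 400 to 800 kb the mutant stood at 0.110 and 0.116 and full-length CTCF between 0.185 and 0.250 with a median of 0.213. All 14 full-length libraries were above the mutant, and the difference was -0.10 (-0.14 to -0.08, exact permutation p = 0.0167, adjusted p = 0.117). At 800 to 1600 kb the difference was -0.11 (-0.29 to 0.05) and at 40 to 100 kb 0.09 (-0.003 to 0.18), each with p = 0.05 by the exact permutation test. Without full-length replicate 6, 3 of the bands were called. The bands at 100 to 200, 200 to 400, 1600 to 3200 and over 3200 kb differed by 0.03, -0.01, 0.03 and 0.07, with libraries overlapping in all 4.

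Contacts between CTCF-bound bins differed between the lines by less than the spread (SD) among full-length libraries. There are 456 pairs of 20-kb bins with a FLAG-CTCF peak at both ends, 100 to 1000 kb apart, counted before pairs at 0 were left out. Their mean log2 observed over expected contact was 0.110 and 0.095 in the mutant. Full-length libraries lay between 0.014 and 0.126 with a median of 0.094, and the difference was 0.02 (-0.03 to 0.08, exact permutation p = 0.583). Pairs with a peak at 1 end differed by 0.01 (-0.04 to 0.16, p = 0.900 by the exact permutation test). The 5760 pairs with no peak at either end were higher in the mutant, at -0.304 and -0.292 against -0.516 to -0.308 with a median of -0.353, a difference of 0.08 (0.02 to 0.21, exact permutation p = 0.0167). This difference turned to -0.004 when the expected value was left out (p = 0.783 by the exact permutation test). The peaks were called in full-length cells after 2 days of dox, and binding of the mutant protein was not analysed here.

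Other lines of the series, all with 2 libraries, place the mutant's values. In the full-length line given auxin without dox, the endogenous protein is degraded and the transgene is not induced. Line EN133.6 makes less full-length CTCF and EN212.1 lacks residues 179-265. EN297.3 carries Y226A-F228A, a pair of substitutions within the stretch mutated in the parylation-deficient line. EN253.2 and EN254.1 are sumoylation-deficient lines, called 1 and 2 here. With 2 libraries against 2 the exact permutation test cannot go below 0.333, so these are values without a test, and all comparisons with full-length CTCF share the same 14 libraries.

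Averaged over the 6 boundaries, insulation was 0.373 and 0.384 without dox, 0.440 and 0.419 in the deletion line, 0.388 and 0.366 with Y226A-F228A, and 0.502 and 0.514 at low expression. The parylation-deficient values of 0.580 and 0.585 were above all of these. The sumoylation-deficient lines stood at 0.589 and 0.581 (line 1) and at 0.650 and 0.658 (line 2), within the full-length range.

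At boundary 5 the order differed. Without dox the score was 0.335 and 0.382, with Y226A-F228A 0.302 and 0.319, and in the deletion line 0.402 and 0.450. The parylation-deficient values of 0.475 and 0.507 were the next higher, followed by low expression at 0.585 and 0.592. The sumoylation-deficient libraries, of the same run of library numbers as the mutant, lay between 0.655 and 0.757, within the full-length range. The score of the parylation-deficient mutant therefore lay between those of cells without dox and those with full-length CTCF, without overlap with either.

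Contacts across boundary 5 were -0.487 and -0.475 in the parylation-deficient mutant and overlapped with those of the deletion line (-0.431 and -0.489). Without dox they were -0.362 and -0.395 and with Y226A-F228A -0.325 and -0.360. Low expression (-0.645 and -0.600) and sumoylation-deficient line 1 (-0.647 and -0.638) also lay above the full-length range, below the parylation-deficient mutant. Sumoylation-deficient line 2 was within the range, at -0.796 and -0.798.

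Contacts across boundary 6 were not intermediate between those without dox and those with full-length CTCF. They stood at -0.304 and -0.282 in the parylation-deficient mutant, at -0.241 and -0.304 in the deletion line and at -0.227 and -0.196 without dox. Both parylation-deficient libraries were below the libraries without dox, and the deletion line overlapped with them. With Y226A-F228A the values were -0.113 and -0.162, while low expression (0.088 and 0.119) and the 4 sumoylation-deficient libraries (0.062 to 0.130) stayed within the full-length range. Primer sets in the last 40 kb differ between libraries, and the values of these lines were not taken over shared primers.

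The pair joining Xist and Rlim had values of 1.34 and 1.56 without dox, 1.36 and 1.24 with Y226A-F228A, and 1.67 and 1.43 in the deletion line. The parylation-deficient values of 1.32 and 1.32 were below those of the deletion line and overlapped with those of Y226A-F228A. In segment 1, contacts of 0.259 and 0.281 in the parylation-deficient mutant overlapped with those of the deletion line (0.272 and 0.261) and lay below those without dox (0.301 and 0.317). At 400 to 800 kb, the band contacts of 0.110 and 0.116 were below those of all these lines, whose lowest value was 0.153 in the deletion line.

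**Figure D5:**
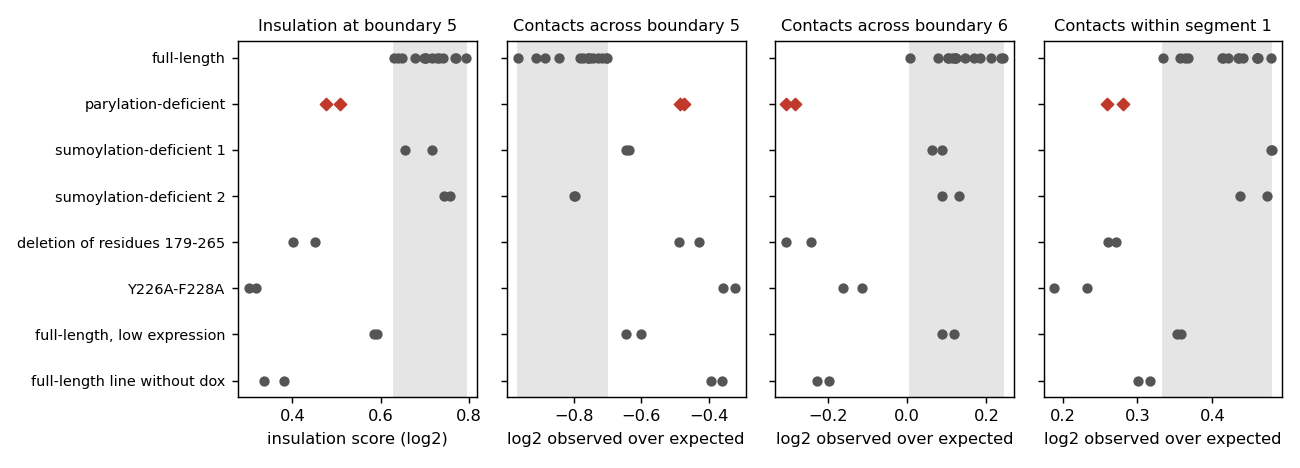
Insulation at boundary 5 (score, log2) and mean log2 observed over expected contact across boundary 5, across boundary 6 and within segment 1, for each library of 8 groups. Red diamonds are the parylation-deficient libraries, grey points all others, and the grey band is the range of the 14 full-length libraries. The parylation-deficient line lies outside the band in all 4 panels and overlaps with the deletion of residues 179-265 in the 3 panels of contacts. Sumoylation-deficient line 1 lies above the band in contacts across boundary 5 (-0.647 and -0.638) and at its upper edge within segment 1.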

How the data were processed

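5C libraries were made by in situ HindIII digestion and ligation and sequenced by the authors. The deposited count matrices hold raw read counts per forward and reverse primer pair, and the deposited corrected matrices hold a contact signal after iterative correction by the authors, with coordinates in mm9. The submitters' processing notes name Bowtie2 and SAMtools, with no version. FLAG-CTCF peaks were those the authors called, kept where both full-length libraries had them.

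Corrected signal was averaged in 20-kb bins over primer pairs. Observed over expected divides by the library's mean at the same distance, for bins at least 40 kb apart. Means of log2 observed over expected left out the pairs at 0 in each library, so the pairs averaged can differ between libraries. Insulation used 100-kb windows with at least 50% of bin pairs measured, which scored 193 of 230 bins. Single values were compared by the two-sided exact permutation test over the 120 ways to choose 2 of 16 libraries, with intervals by inversion, and families adjusted by Benjamini-Hochberg. Insulation and 40-kb bin pairs (log2(value + 0.1), at least 4 primer pairs, mean of at least 0.1) were fitted with limma 3.58.1 in R 4.3.3, and other steps used Python 3.11.15. A call is an adjusted p under 0.05. The fit was run on simulated bin pairs with independent noise. Such data cannot show how shared bins or differences between libraries affect the calls.

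All boundaries, segments and bands are named. Of called 40-kb bin pairs the 5 with the largest difference in each direction are named, or the 3 with the smallest p where none was called, and of called bins the 3 with the largest difference in each direction. The boundaries, windows and members were chosen with earlier results of these data known. Replicate numbers 3 and 4 occur 2 times in the full-length group. Deviations of same-numbered libraries correlated by 0.002 and 0.22, and those of other pairings by -0.24 to 0.24. With 2 mutant libraries the deviations of 1 mirror those of the other, so these correlations cannot decide on pairing. Numbers were not treated as pairs. No 2 of the 16 libraries shared more than 6.84% of nonzero counts, so none was taken as deposited more than once.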

Additional observations from a re-analysis of the deposited data

How the results depend on the processing

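The fall of insulation at boundary 5, the rise of contacts across it and the fall across boundary 6 kept their direction in every alternative run. The 18 called bins did so wherever they were scored. With 200-kb windows 16 of them had a score, and the others, in segment 1, lie too near the left end of the map. The mean insulation difference was 0.017 with the replicate block on replicates 1 and 2, -0.052 with the score at the left edge of the bin (called), 0.18 as a ratio of contacts within to across and 0.023 as the log2 of that ratio. It lay between -0.030 and -0.017 with single libraries left out. Its raw-count version was not run, since the 91 shared forward primers cover only part of the map. The cause of these changes was not tested.

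Directions that reversed all belong to differences that were not called, with 1 exception. Segment 2 became -0.0011 over shared primers, -0.0094 with the median over primer pairs and -0.0015 with the log after the mean, and lay between -0.0030 and 0.0037 with single libraries left out. The log after the mean gave -0.022 in segment 7. Without an expected value segment 6 became -0.014. The band at 100 to 200 kb became -0.016 in raw counts over the shared forward primers and -0.019 in the corrected signal over those primers, and in raw counts the bands at 1600 to 3200 kb and beyond 3200 kb became -0.0070 and -0.025. Pairs with no peak became -0.0043 without an expected value, the exception. Pairs with a peak at 1 end became -0.0025 over shared primers, -0.016 with the median, -0.063 without an expected value and -0.0024 at 200 to 600 kb. Pairs with peaks at both ends became -0.0022, -0.015 and -0.052 under the first 3 of these, -0.0050 with peaks in neighbouring bins counted, and lay between 0.0080 and 0.023 with single libraries left out. Insulation at boundary 6 became 0.035 against the same run, 0.080 with the replicate block, 0.056 against the 5 libraries with the mutant's primers, 0.011 against the 5 with few bin pairs at 0 and 0.051 with 200-kb windows. Boundary 3 became -0.024 with the block and boundary 2 became 0.037 with 200-kb windows. With single libraries left out, boundaries 1, 3 and 6 lay between -0.029 and 0.011, -0.0082 and 0.019, and -0.028 and 0.0075.

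Contacts across boundaries gave 5 calls over shared primers, with the median and with the log after the mean, 0 without an expected value (adjusted p 0.05 at boundaries 5 and 6 by the exact permutation test), and 3 to 5 with single libraries left out. Segments gave 0 and bands 0 to 3 calls with single libraries left out. Boundary insulation gave 3 calls against the same run, 2 with the replicate block, 2 against libraries with few bin pairs at 0, and 0 to 1 with single libraries left out. The calls beside boundary 5 were boundary 4, higher in the mutant, in the first 3 settings and boundary 2, lower, against the same run. Called bins numbered 86 against the same run, 69 with the block, 48 with the mutant's primers, 33 with few bin pairs at 0, 36 with 200-kb windows, and 0 to 24 with single libraries left out. Called bin pairs numbered 2 against the same run, 0 with the block (574 at an unadjusted limma p under 0.05), 0 against libraries in the same matrix format (431), 1 with the mutant's primers, 0 with few bin pairs at 0 (736), 7 over shared primers, 46 without an expected value, 0 with a pseudocount of 0.5 (511), 1 in 20-kb bins, 53 in 80-kb bins, 96 in a fit on all transgene libraries, and 0 to 20 with single libraries left out. All 11 pairs stayed lower in every setting that kept 40-kb bins. Same-numbered libraries were not shown to be pairs. The comparisons with libraries of few zeros, with the mutant's primers and with corrected signal over the shared forward primers were added after seeing the data. With 2 mutant libraries no exact p can fall below 0.0167.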

Other observations

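Over the 91 forward primers at the left end of the map whose raw counts are present in all libraries, contacts across boundary 1 differed by 0.17 in raw counts and by 0.13 in corrected signal, each with p = 0.0167 in the two-sided exact permutation test.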
